A study of Mus musculus with 5 samples.

Results

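Retinoic acid is the active form of vitamin A. The oxidation of retinaldehyde by Aldh1a2 is its main source in the early embryo, and in the midgestation heart this enzyme is best known from the epicardium, the outer cell layer. Inside a target cell the ligand is carried by the small binding proteins Crabp1 and Crabp2 and acts through pairs of nuclear receptors, in which a retinoic acid receptor (Rara, Rarb or Rarg) joins a retinoid X receptor (Rxra, Rxrb or Rxrg). The pathway is known for its part in growth of the ventricular wall and in septation of the outflow tract. The set described here holds these 9 genes of 12393 measured. Its members are all probe sets whose platform annotation gives 1 gene symbol equal to one of the 9, which gave 11 probe sets of 20380, with 2 for Rarg, 2 for Rxra and 1 for each other gene.

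The animals were wild-type mice at embryonic stage E12.5, of strain 129P2/OlaHsd backcrossed to C57BL/6 over 2 generations, with no treatment or transgene in the labels. Each of 5 hearts was hybridised whole to its own Affymetrix mouse 430A array, after amplification from 10 ng of total RNA, and is named by its replicate number in the labels, 6 to 10. All hearts form 1 group, so levels and the spread between hearts can be described and no contrast can be tested. Nothing used here says whether the embryos were littermates, and p-values measure only the spread between these samples.

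A level is log2(intensity + 16), given as mean ± SD over 5 hearts unless stated otherwise. A probe set counts as above background in a heart where it exceeded the 95th percentile of 100 probe sets of 66 genes of unrelated tissues, such as lens, sperm and pancreas. That background lay between 5.12 and 5.46 on the 5 arrays. Precision is limited by having 5 arrays. Probe sets differ in how strongly they respond, so levels of different genes were not compared, and a gene below background may still be expressed. The arrays had trimmed mean intensities of 150.1 each and medians between 27.1 and 30.4. The heart muscle markers Tnnt2 (13.00 ± 0.15), Myh6 (11.97 ± 0.14) and Myh7 (12.69 ± 0.21) lay far above background. Of 8 listed muscle markers, 7 exceeded it in all hearts, by varying distances, beside 52.9% of all genes by their brightest probe set. Heart 7 had the highest ratio of Gapdh signal from the 3′ end to that from the 5′ end, 5.69 beside 2.50 to 3.55 elsewhere. The same ratio for actin did not set it apart, at 4.27 beside 4.48 in heart 8 and 3.20 to 3.67 in the rest. The count of members above background was 6 of 11 with it and without it.

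Receptor pairs bind DNA at repeats of a short element, and Rarb is a well-known target of its own ligand, as is Cyp26a1, which encodes the enzyme that breaks retinoic acid down. Promoter windows from RefSeq on GRCm38.p6 (250 bases before to 50 after a start) were matched by symbol for 8 of the 9 genes, Crabp2 being the exception, with 15 windows in all. They were searched on both strands for the direct repeats DR1, DR2 and DR5, in which 2 copies of the element (A or G, then G, then G or T, then TCA) are spaced by 1, 2 or 5 bases. A single member window held a match, the DR5 of Rarb at positions -53 to -37 from the start. Of all 32851 windows, 0.0974% held a DR5, 0.222% a DR1 and 0.268% a DR2. Among 52 other genes of the pathway that had windows, Cyp26a1 held a DR5 at -32 to -16 on the other strand, and Bco1, which cleaves carotene to retinaldehyde, held a DR1 (named after the search). The 250 bases before the start of both DR5 genes are shown because they carry the element through which the ligand is known to act, with the DR5 in capitals. The Rarb stretch lies at chr14:16575477-16575726 on the minus strand and the Cyp26a1 stretch at chr19:37697558-37697807 on the plus strand.
Rarb: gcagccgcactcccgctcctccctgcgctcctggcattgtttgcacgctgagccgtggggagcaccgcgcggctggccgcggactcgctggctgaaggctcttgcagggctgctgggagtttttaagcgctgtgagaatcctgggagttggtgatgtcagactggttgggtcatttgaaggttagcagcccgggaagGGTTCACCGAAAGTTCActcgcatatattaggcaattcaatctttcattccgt
Cyp26a1: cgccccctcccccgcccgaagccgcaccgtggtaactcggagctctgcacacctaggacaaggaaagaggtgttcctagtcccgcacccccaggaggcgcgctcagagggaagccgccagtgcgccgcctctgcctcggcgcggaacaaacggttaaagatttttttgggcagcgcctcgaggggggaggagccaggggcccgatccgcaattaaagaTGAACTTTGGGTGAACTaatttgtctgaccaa
The matches are descriptions of these letters and do not show that a receptor was bound in these hearts. The signals of Rarb and Cyp26a1 are given with their own groups below. Bco1 (4.80 ± 0.27) was above background in no heart.

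The synthesising enzyme, both binding proteins, 1 retinoic acid receptor and 2 retinoid X receptors gave signal in all hearts. Of the 11 probe sets, 6 were above background in all 5 hearts (54.5%), beside 47.2% of all probe sets. They belong to Aldh1a2, Crabp1, Crabp2, Rarb, Rxra and Rxrb. Another 4 probe sets were above background in no heart (36.4%, beside 34.9% of all), those of Rara and Rxrg, 1 of Rarg and 1 of Rxra. The remaining Rarg probe set was above background in 2 hearts, and 17.8% of all probe sets were so in 1 to 4 hearts. These shares lie near those of all probe sets, and the counts describe which members gave signal, not a property of the pathway. At a background set at the 99th percentile, 3 probe sets remained above it in all hearts, those of Crabp1, Rxrb and Rxra, while Crabp2 was above it in 3 hearts, Rarb in 2 and Aldh1a2 in 1. Of all probe sets, 33.7% were above that background in all hearts.

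**Figure D1:**
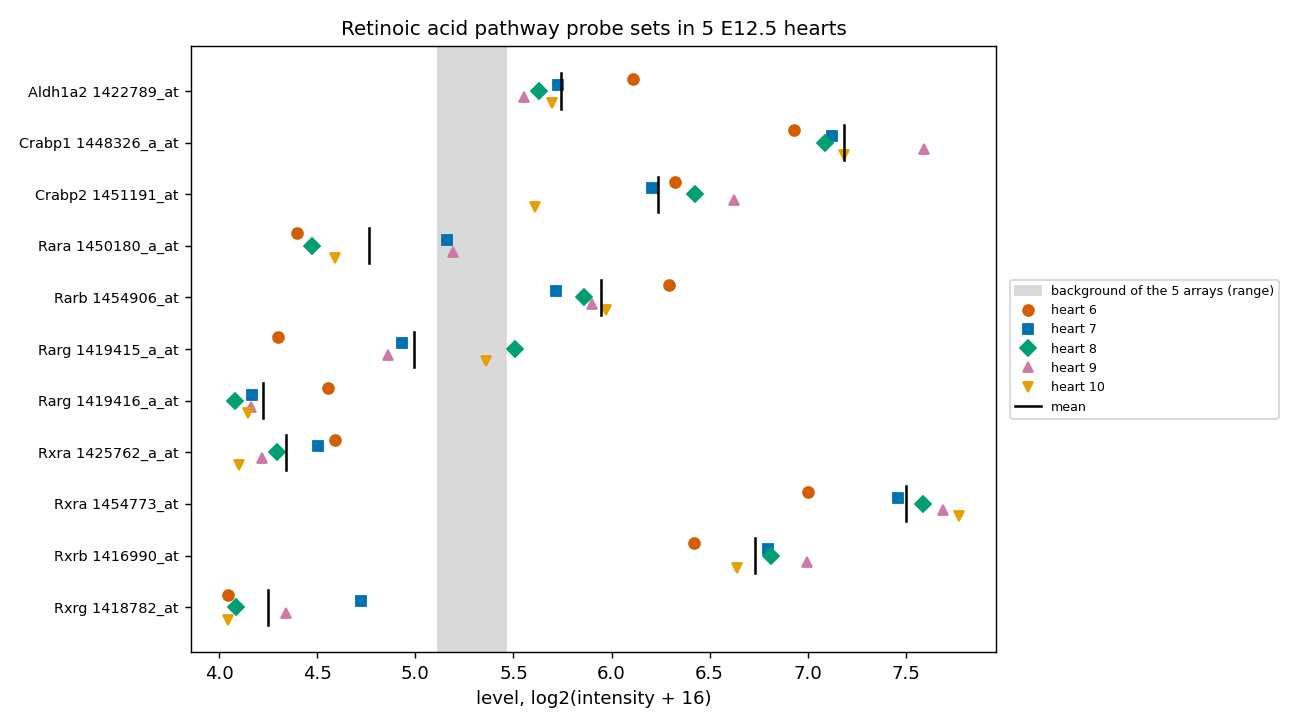
Level of each of the 11 probe sets, log2(intensity + 16), in each of 5 E12.5 hearts (symbols), with the mean as a black bar and the range of the array backgrounds, 5.12 to 5.46, in grey. Probe sets of Aldh1a2, Crabp1, Crabp2, Rarb and Rxrb and the Rxra probe set 1454773_at lie to the right of the grey band in every heart. Those of Rara and Rxrg and the other Rxra probe set do so in no heart.

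Aldh1a2, the retinaldehyde dehydrogenase that makes the ligand, was above background in every heart but only just. Its levels were 6.11, 5.73, 5.63, 5.55 and 5.70 in hearts 6 to 10, a mean of 5.74 ± 0.22. Heart 6 was the highest and the other 4 hearts lay close together. In deposited intensity this was 53.2 in heart 6 and 30.9 to 36.9 in the others. The distance above background was 0.99 in heart 6 and 0.17 in heart 8, the smallest of any member counted as above background in all hearts. With 1 probe set standing for each gene and the background recomputed from those, Aldh1a2 was above background in 4 hearts and the count of genes above it in all hearts was 5 of 9, beside 49.7% of all genes.

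Since Aldh1a2 is known from the epicardium, the listed markers of that layer were read beside it. Of 9 measured epicardial markers, 7 were above background in all hearts, beside 52.9% of all genes, and 2 in some, Tcf21 and Msln. The transcription factor Wt1 had 7.20 ± 0.15, Tbx18 7.16 ± 0.24 and Tcf21 6.02 ± 0.45. In heart 6, Aldh1a2 lay 0.37 above its own mean over 5 hearts, and the epicardial markers lay on average 0.03 above theirs. That average joins markers that went both ways in heart 6, where Tcf21 (0.32) and Bnc1 (0.28) had their highest levels, as Aldh1a2 did, and Krt8 (-0.15) and Tbx18 (-0.12) lay below their means. Bnc1 and Krt8 are named after their values were seen, and the part of epicardial cells in the Aldh1a2 signal was not tested. In whole hearts, fewer cells of a type and less RNA per cell cannot be told apart.

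Both cytoplasmic binding proteins were above background in all hearts. Crabp1, which binds the ligand tightly and is linked to its turnover, had 6.93, 7.13, 7.09, 7.59 and 7.18 in hearts 6 to 10 (7.18 ± 0.25). Its lowest distance above background was 1.63. Crabp2, which delivers the ligand to the receptors in the nucleus, had 6.32, 6.21, 6.43, 6.63 and 5.61 (6.24 ± 0.38). Heart 9 was the highest for both genes, whereas the lowest was heart 6 for Crabp1 and heart 10 for Crabp2. The intensity of Crabp2 ran from 32.9 in heart 10 to 82.8 in heart 9, a ratio of 2.52, and its coefficient of variation of 30.1% was the largest of the 6 probe sets above background in all hearts. The other 5 had coefficients between 17.2% and 23.0%.

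Crabp1 is also known from neural crest and neurons, so listed markers of those cells were checked. Of 6 measured, 2 were above background in all hearts, beside 52.9% of all genes. These were Stmn2 (6.25 ± 0.28) and Gap43 (6.10 ± 0.45), the latter by only 0.08 in heart 7. Tubb3 was above background in 4 hearts, by at most 0.14. The neural crest transcription factors Sox10 (4.61 ± 0.39) and Foxd3 (4.47 ± 0.43) were above background in no heart. In heart 9, where Crabp1 was highest, Stmn2 lay 0.44 above its mean and Gap43 did not (-0.06). In heart 6, where Crabp1 was lowest, neither lay below its mean (0.01 for Stmn2 and 0.14 for Gap43). Tubb3 lay 0.10 above its mean in heart 9 and below it in heart 6 (-0.13). Elavl4, above background in no heart, had -0.38 in heart 9 and 0.02 in heart 6. The list's mean deviation was 0.16 in heart 9 and -0.14 in heart 6. Sox10 and Foxd3, which are background-level readings, weighed on both means. They had 0.43 and 0.45 in heart 9, and -0.43 each in heart 6. The part of these cells in the Crabp1 signal was not tested.

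**Figure D2:**
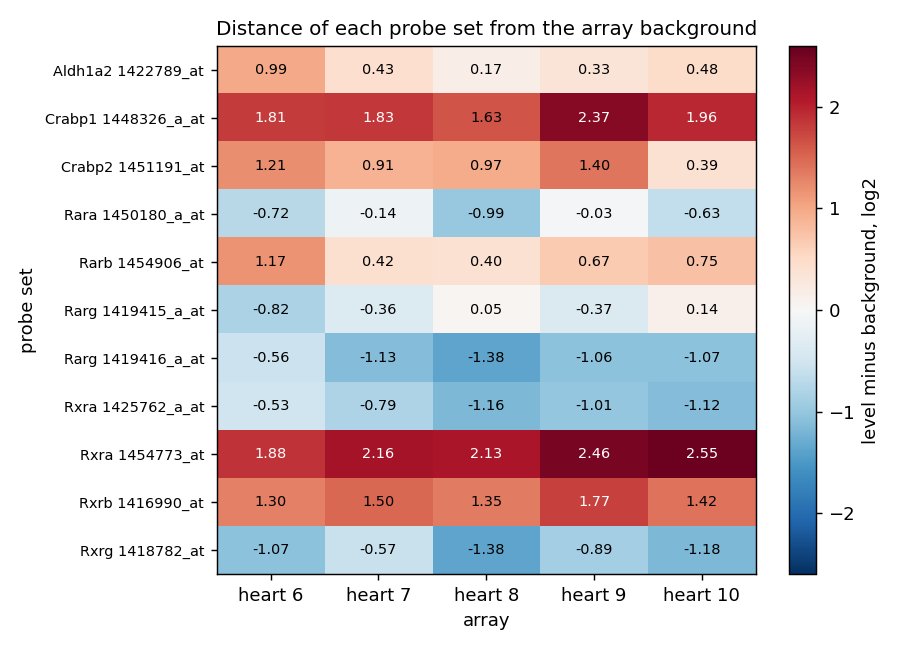
Level minus the background of the same array, in log2 units, for each probe set (rows) in each heart (columns), with red above and blue below background. Aldh1a2 in heart 8 lies 0.17 above background, Rara in heart 9 lies 0.03 below it (-0.03), and the 2 Rxra probe sets lie on opposite sides in every heart.

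Of the retinoic acid receptors, the ligand-activated transcription factors of the pathway, Rarb alone was above background in all hearts. Rarb, the subtype whose gene carries the DR5 shown above, had 6.29, 5.71, 5.86, 5.90 and 5.97 in hearts 6 to 10 (5.95 ± 0.21). Heart 6 was the highest and heart 7 the lowest, with intensities of 62.3 and 36.5. Its lowest distance above background was 0.40, in heart 8.

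Rara, the subtype known for its wide expression, had 4.40, 5.16, 4.48, 5.19 and 4.59 (4.76 ± 0.38) and exceeded background in no heart. The distance from background was -0.14 in heart 7 and -0.03 in heart 9, and between -0.99 and -0.63 in hearts 6, 8 and 10. At the 90th percentile of background Rara was above it in 2 hearts. A single probe set stands for this gene, and a signal below background does not show that the receptor was missing.

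Rarg, the subtype best known from cartilage and skin, was measured by 2 probe sets. Probe set 1419415_a_at had 4.30, 4.93, 5.51, 4.86 and 5.36 in hearts 6 to 10 (4.99 ± 0.48) and was above background in hearts 8 and 10, by 0.05 and 0.14. Probe set 1419416_a_at had 4.55, 4.17, 4.08, 4.16 and 4.15 (4.22 ± 0.19), below background in every heart. Heart 6 was the lowest by the first probe set and the highest by the second, and heart 8 the reverse.

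Of the retinoid X receptors, the shared partners of many nuclear receptors, Rxra and Rxrb were above background in all hearts and Rxrg in none. Rxra, the subtype whose loss in mice is known to thin the ventricular wall, had 7.00, 7.46, 7.59, 7.69 and 7.77 in hearts 6 to 10 by probe set 1454773_at (7.50 ± 0.30). Every heart lay at least 1.88 above background. Its other probe set, 1425762_a_at, had 4.59, 4.50, 4.30, 4.22 and 4.10 (4.34 ± 0.20), below background in every heart. Heart 6 was the lowest by the first probe set and the highest by the second, and heart 10 the reverse.

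Rxrb, the broadly expressed subtype, had 6.42, 6.80, 6.81, 7.00 and 6.64 (6.73 ± 0.22), at least 1.30 above background. The hearts lay close together, with a coefficient of variation of 17.2%, the smallest of the 6. Rxrg, known from skeletal muscle and parts of the brain, had 4.05, 4.72, 4.09, 4.34 and 4.04 (4.25 ± 0.29) and was below background in every heart, with distances of -1.38 to -0.57. Its intensity was 10.4 in heart 7 and at most 4.24 in the others.

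In the 2 genes measured by 2 probe sets, the probe sets did not move together across hearts. Agreement was read as the variance over hearts of the difference between 2 probe sets divided by the sum of their variances, which is near 0 where they move together, near 1 where they are independent and above 1 where they oppose each other. This ratio was 1.84 for Rxra and 1.61 for Rarg. Over all 12821 pairs of probe sets of a gene, its median was 0.88, with quartiles of 0.53 and 1.24. In pairs with 1 probe set above background in all hearts, like that of Rxra, the median was 0.92 (35.5% of pairs), and in pairs with neither, like that of Rarg, it was 0.98. Both member pairs thus lay above the upper quartile of all pairs. In each, at least 1 probe set was at background level, and without heart 6 the Rarg ratio was 1.21 and the Rxra ratio 1.97. The platform annotation ties both Rxra probe sets to the same Entrez gene, and which transcripts they cover was not used here.

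**Figure D3:**
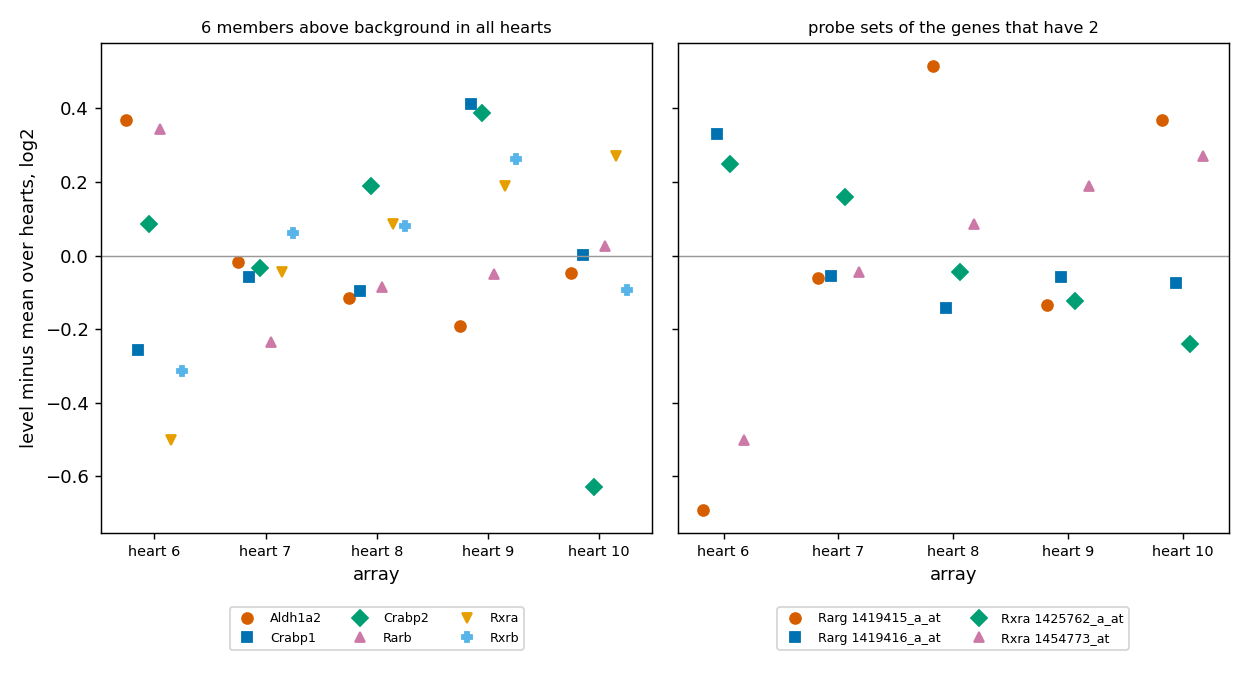
Level of a probe set minus its own mean over 5 hearts, in log2 units, by heart. The left panel shows the 6 probe sets above background in all hearts, of which 5 have their highest or lowest level in heart 6. The right panel shows both probe sets of Rarg and of Rxra, which deviate in opposite directions in heart 6.

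No member passed the test for variation between hearts beyond that of probe sets of its level. The test was an F test of each probe set's variance against the prior variance that limma fitted to all probe sets of similar level. It called 0 of 11 members and 9 of 20380 probe sets (0.0442%) at an adjusted p under 0.05. At an unadjusted p under 0.05 it called 0 members, beside 4.33% of all probe sets. The lowest unadjusted p was 0.113, for the Rarg probe set 1419415_a_at, and adjusted p ranged from 0.960 to 0.977 over the members by this F test. The median SD was 0.25 over the 11 members and 0.27 over all probe sets, an order that some other settings reversed. It was 0.23 over the 6 above background in all hearts and 0.25 over all 9626 such probe sets. With 5 hearts an SD is itself loose. The 95% interval of the SD, from the chi-square distribution, was 0.13 to 0.62 for Aldh1a2, 0.23 to 1.10 for Crabp2 and 0.18 to 0.87 for Rxra by probe set 1454773_at. A p that misses the threshold does not show that the hearts were alike.

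**Figure D4:**
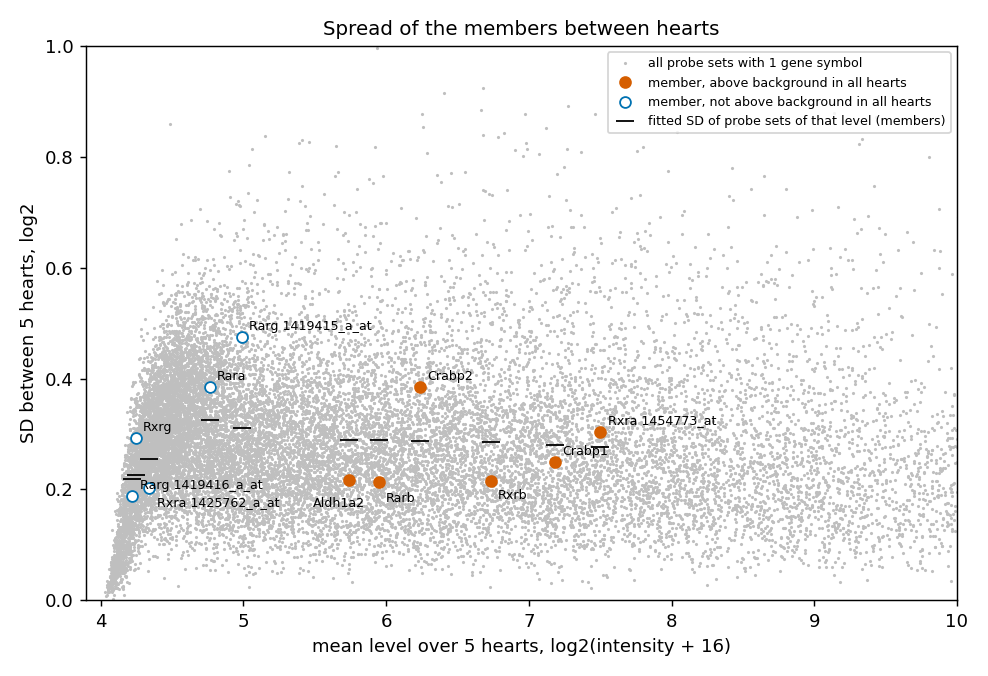
SD between 5 hearts against mean level, both on the log2(intensity + 16) scale, for all 20380 probe sets (grey) and the members (circles, filled where above background in all hearts), with black dashes for the SD fitted to probe sets of that level. Of the members, 5 lie above and 6 below the fitted SD, and the axes are cut off at an SD of 1 and a level of 10.

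Hearts 6 and 9 were most often the highest or lowest heart among the members above background, whereas heart 7 was over all such probe sets. Among the 6 probe sets above background in all hearts, Aldh1a2 and Rarb had their highest level in heart 6, and Crabp1, Rxra and Rxrb their lowest. Heart 6 was thus the extreme heart for 5 of 6, beside 43.1% of all probe sets above background in all hearts. Heart 9 was so for 4 of 6, beside 25.9% of all, being the highest for Crabp1, Crabp2 and Rxrb and the lowest for Aldh1a2. Hearts 7, 8 and 10 were so for 1, 0 and 2 of 6, beside 58.6%, 42.9% and 29.5% of all. Against the mean of the other 4 hearts, heart 6 differed by 0.46 for Aldh1a2, 0.43 for Rarb, -0.32 for Crabp1, -0.39 for Rxrb and -0.63 for Rxra. Without heart 6, the SD of Aldh1a2 was 0.08 in place of 0.22 and that of Rxra 0.14 in place of 0.30, whereas that of Crabp2 was 0.44 in place of 0.38. The median SD of the 11 members was then 0.17, beside 0.26 over all probe sets. Heart 6 was chosen for this description after its values were seen, and no test was made of it. Heart muscle markers had a mean deviation of -0.16 in heart 6, against -0.04 to 0.12 in the others, and liver markers one of -0.34, against -0.04 to 0.19. The liver value came largely from Apoa2 (-1.42). Ahsg (0.17) and Fgb (0.27) lay above their means in heart 6, and Alb, Afp and Apob below theirs. No liver marker was above background in all hearts. The part of heart muscle or liver cells in the result was not tested.

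Other enzymes of retinoid metabolism gave signal in part. Of 15 measured, 5 were above background in all hearts, beside 52.9% of all genes by their brightest probe set, namely Rdh10, which makes retinaldehyde from retinol, Dhrs3, which turns it back, and Rdh11, Adh5 and Retsat. Rdh10 had 5.80 ± 0.27 and Dhrs3 6.69 ± 0.30. Of the other retinaldehyde dehydrogenases, Aldh1a1 was above background in 2 hearts (5.15 ± 0.51) and Aldh1a3, named after its values were seen, in none. Adh1 and Lrat were above background in some hearts, and 7 of the 15 in none. Cyp26a1, the degrading enzyme, had 4.05, 4.71, 4.20, 4.08 and 4.85 in hearts 6 to 10 (4.38 ± 0.37), below background in every heart. The related enzymes Cyp26b1 and Cyp26c1 were not analysed here.

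Genes of retinol supply were split. Of 7 measured, 3 were above background in all hearts, beside 52.9% of all genes. These were the fatty acid binding protein Fabp5, which also carries retinoic acid, the retinol binding protein Rbp7 and the plasma carrier Ttr. The plasma retinol binding protein Rbp4 (4.54 ± 0.39), its receptor Stra6 (4.45 ± 0.11), Rbp2 (4.69 ± 0.44) and Rbp3 were above background in no heart.

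Most coregulators of the receptors gave signal. Of 6 corepressor genes, 5 were above background in all hearts, including the deacetylase Hdac3 (5.78 ± 0.12) and the scaffold genes Tbl1x (8.69 ± 0.28) and Tbl1xr1 (7.61 ± 0.18), and Sin3a was so in 4 hearts. Of 7 coactivator genes, 5 were above background in all hearts, with Ncoa1 at 7.06 ± 0.37, while Ncoa2 (4.83 ± 0.48) and Ncoa3 (5.13 ± 0.30) exceeded it in 1 heart each. These counts stand beside the same 52.9% of all genes.

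Other receptors that pair with retinoid X receptors were mostly below background. Of 12 measured, 2 were above it in all hearts, beside 52.9% of all genes. These were the thyroid hormone receptor Thra (7.37 ± 0.21) and the vitamin D receptor Vdr (5.59 ± 0.34). Vdr was so by only 0.003 in heart 6. The liver X receptor Nr1h3 (4.97 ± 0.35) was above it in 1 heart. Among the 9 above it in none were the fatty acid sensors Ppara (4.23 ± 0.14) and Ppard (4.39 ± 0.31). Over all probe sets, with no choice of 1 for each gene, 34.9% were above it in no heart.

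Genes known to respond to retinoic acid in embryos were above background in all hearts at about the share of all genes. Of 11 measured, 6 were so (54.5%, beside 52.9% of all genes), Meis1, Meis2, Nr2f1, Nr2f2, Tgm2 and Tshz1, which are named after their values were seen. The Hox genes Hoxb1 (4.51 ± 0.31), Hoxa5 (4.55 ± 0.48) and Hoxb5 (4.31 ± 0.17), and Cdx1 and Stra8, were above background in no heart. Of the 59 measured genes of these lists, 0 passed the F test of variance after adjustment over all probe sets, and 1 had an unadjusted p under 0.05, the coactivator gene Med1.

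**Figure D5:**
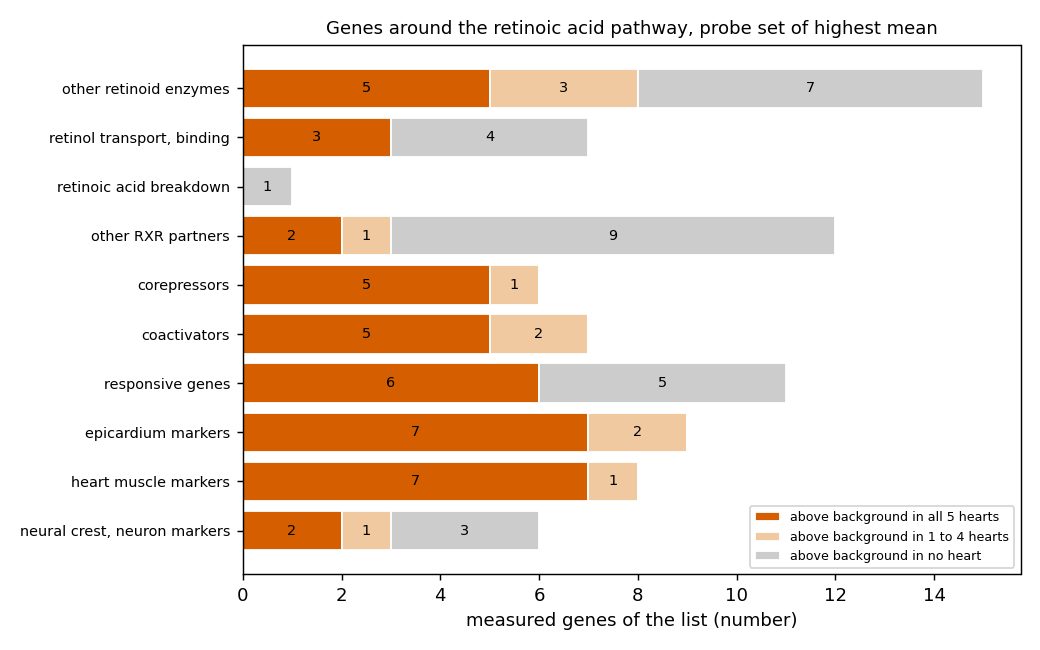
Number of measured genes of each list that were above background in all 5 hearts, in 1 to 4 hearts and in no heart, each gene by its probe set of highest mean. Corepressors (5 of 6) and coactivators (5 of 7) were above background in all hearts, whereas 9 of 12 other partners of retinoid X receptors were so in no heart. Over all genes, 52.9% were above background in all hearts.

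Markers of other tissues were read for carry-over. Liver genes were above background in all hearts for 0 of 6, in some hearts for 2 and in no heart for 4. Apoa2, a plasma lipoprotein gene, was above it in 4 hearts, by up to 1.11, and lay below it in heart 6 (-0.62), and Alb exceeded it in 1 heart by 0.01. Lung and foregut epithelial genes were above background in all hearts for 0 of 7, in no heart for 6 and in 4 hearts for Grhl2, an epithelial transcription factor. Red cell genes were above it in all hearts for 6 of 6. These list counts stand beside 52.9% of all genes above background in all hearts. The red cell genes had a mean deviation of 0.73 in heart 7 and -0.36 to 0.15 in the others. Of the members above background in all hearts, Rarb alone had its lowest level in heart 7 and none its highest.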

How the data were processed

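Array images were summarised by the authors in GCOS, according to the submitters' processing notes, with no version or algorithm named. For each array the deposited values are linear intensities of 22690 probe sets, which share a 2% trimmed mean. Of these, 20393 had 1 gene symbol in the platform annotation, 691 several and 1606 none, and 64 were controls. After controls were left out, 20380 were used. Entrez numbers gave current symbols for 20351. Intensities were rescaled to 1 trimmed mean and analysed as log2(intensity + 16), an offset that compresses differences of weak genes. Background was the 95th percentile of the unrelated-tissue probe sets, of which 2 exceeded it in all hearts. Variances (4 degrees of freedom) were tested in R 4.3.3 by an F test, upper tail, against a robust prior variance with a trend on level. Limma 3.58.1 fitted that prior, and its highest prior degrees of freedom (12.57) were used for every probe set. The p-values were adjusted by Benjamini-Hochberg over all probe sets, and the test was first tried on simulated data. A list gene was read by its probe set of highest mean. The members and lists were chosen with earlier results of these data known. The rule for names took every member probe set, the first 3 measured genes of a list, and list genes in counts of 5 or fewer or past the variance test. Other settings tried are given in the closing section.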

Additional observations from a re-analysis of the deposited data

Results flagged for a closer look

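Dixon's test for an outlying heart was applied to 39 probe sets, the 11 members and up to 3 leading genes from every list in the plot of list counts, in written order. It divides the distance between an outermost heart and its neighbour by the range of all 5, with a critical value of 0.710. Chance puts about 1 in 20 groups of normally distributed values past it, and 5 of 39 were. The share of all probe sets past it was not computed, so no excess can be read from this count. Of the 5, Myh7 alone was above background in all hearts. The Rarg probe set 1419416_a_at had a ratio of 0.814, where heart 6 read 4.55 and the rest 4.08 to 4.17, all below background. The ratio was 0.753 for Myh7, where heart 6 read 12.32 and the rest 12.73 to 12.87. The ratio was 0.815 for Stra6, which was high in heart 10 (4.65), 0.837 for Ncoa3, high in heart 8 (5.66), and 0.822 for Nr1h3, low in heart 8 (4.35). Of the 6 member probe sets above background in all hearts, none was past the critical value, Aldh1a2 coming nearest at 0.691 in heart 6.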

How the results depend on the processing

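The count of member probe sets above background in all hearts was 6 of 11 in 12 of 14 other settings, among them unscaled or quantile-normalized intensities, offsets of 1 and 64, no probe sets of type _x_at or _s_at, each heart left out (6 in each), the 90th percentile and 3 hearts sufficing. It was 3 at the 99th percentile (33.7% of all probe sets) and 5 of 9 genes by 1 probe set a gene (49.7% of all genes). No member was called variable in any of 15 other settings of the F test of variance, where the lowest adjusted p lay between 0.939 and 0.988. The median SD of 0.25, beside 0.27 over all probe sets, depends on the offset. It was 0.50 at an offset of 1 (0.45 over all probe sets) and 0.14 at 64 (0.13 over all). With a heart left out it lay between 0.17 and 0.28, the lowest being without heart 6. The members' median was also the higher without heart 7 (0.25 beside 0.24) and without heart 8 (0.28 beside 0.25). Which of the 2 medians was higher thus depended on the setting. The Rxra probe set ratio was 1.60 at an offset of 1, 1.45 at 64 and 1.77 to 1.97 with a heart left out. The Rarg ratio lay between 1.21 and 1.66 with a heart left out. No paired analysis was possible because the hearts form 1 group. Signal close to background in some or all hearts limits the values of Aldh1a2, Crabp2, Rarb, Rara and Rarg.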
